A study of Mus musculus with 4 samples.

Results

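MHC class II genes were followed as a set of 8 genes in young and aged mouse hematopoietic stem and progenitor cells (HSPCs). The members were taken by symbol from the gene lists deposited with the 4 pools, with no filter on their values: Cd74, H2-Aa, H2-Ab1, H2-Eb1, H2-DMa, H2-DMb1, H2-DMb2 and Ciita. Earlier results of these data were known when the set was chosen. All 8 were found among the 28692 genes listed, and all 8 passed the filter on low counts that left 13555 genes to test.

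MHC class II molecules present peptides from the endosomal pathway to CD4+ T cells and are best known from dendritic cells, B cells and macrophages, though immature hematopoietic cells also carry their transcripts. H2-Aa and H2-Ab1 encode the α and β chains of I-A, and H2-Eb1 the β chain of I-E. C57BL/6 mice lack a functional I-E α chain, so that I-E does not reach the surface in this strain although H2-Eb1 is transcribed. Cd74 encodes the invariant chain, which occupies the peptide groove during transport and is also a surface receptor for the cytokine Mif. H2-DMa and the closely related H2-DMb1 and H2-DMb2 encode the chains of H2-DM, which exchanges the last fragment of the invariant chain for antigenic peptide. Ciita encodes the co-activator that switches the class II promoters on.

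The study sorted Lin-, Sca1+, cKit+ (LSK) Flt3- cells from the bone marrow of male C57BL/6-CD45.2 mice and profiled them with the droplet-based 10x Genomics 3′ v2 kit, to ask how age changes these cells. Young mice were 2 to 3 months old and aged mice 17 to 18 months old, and the marrow of 2 or 3 mice was combined into each pool, giving a young and an aged pool A and a young and an aged pool B. The labels name no transgene and no treatment for any pool. Pools lettered A were captured and sequenced at the HalioDX facility and pools lettered B at the TGML facility. Pool ages were taken from the titles and source names, which agree, whereas the free-text descriptions of aged pool A and of young pool B give the opposite age. Where 2 values are given for an age, that of pool A comes before that of pool B.

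After a filter on UMIs (unique molecular identifiers, counts of transcript molecules) per barcode, the pools held 2244 to 5189 cells and 16399999 to 36446168 UMIs, with medians of 5674 to 6719 UMIs per cell. Pairs of pools shared 8 to 26 barcodes. The labelled cell type was checked on 10 genes of hematopoietic stem cells, all of which were above 1 CPM (UMIs counted in the pool, scaled to 1e6) in every pool, with sums of 823 and 904 CPM in the young pools and 1521 and 1411 CPM in the aged pools. Some markers of mature antigen-presenting cells were near 0: Ms4a1, Cd22 and Cxcr5 of mature B cells, Xcr1, Clec9a, Itgax, Batf3 and Ccr7 of conventional dendritic cells and Adgre1, Fcgr1 and Mertk of macrophages were under 1 CPM in all 4 pools. They are among the low genes of their lists. In young A, young B, aged A and aged B, 8, 8, 7 and 9 of 9 mature B cell genes were under 1 CPM. It was 6, 7, 7 and 8 of 10 conventional dendritic genes, but only 3, 4, 4 and 6 of 12 macrophage and monocyte genes. The mature B cell list summed to 2.07 to 4.71 CPM and the conventional dendritic list to 58.4 and 25.5 CPM in the young pools and 20.5 and 9.82 CPM in the aged pools. The macrophage and monocyte list summed to 362 to 493 CPM, led by Lyz2, and the plasmacytoid dendritic list to 219.6 to 257 CPM, led by Bst2. The plasma cell list stood apart from these, with sums of 592 and 445 CPM in the young pools against 4355 and 1996 CPM in the aged pools, led by the immunoglobulin light chain gene Igkc. In sums over a pool, more cells with a transcript and more transcript per cell cannot be told apart, and UMIs were therefore also counted by cell. The share of cells with a UMI also rises with the level per cell, so such counts do not fully separate these readings.

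In GRCm38, 6 of the 8 members lie close together on chromosome 17, in the mouse MHC. H2-DMa (ENSMUSG00000037649) spans chr17:34119693-34139101, H2-DMb2 (ENSMUSG00000037548) chr17:34143229-34151553 and H2-DMb1 (ENSMUSG00000079547) chr17:34153191-34160229. H2-Ab1 (ENSMUSG00000073421) follows at chr17:34263227-34269418, H2-Aa (ENSMUSG00000036594) at chr17:34282744-34287823 and H2-Eb1 (ENSMUSG00000060586) at chr17:34305867-34316674. Ciita (ENSMUSG00000022504) lies apart at chr16:10480014-10531064 and Cd74 (ENSMUSG00000024610) on another chromosome. Among exons annotated in GENCODE vM21, those of Cd74 overlapped the microRNA gene Mir5107 on the same strand, and those of the other members overlapped no other gene on their strand. Of the 98-base words in the transcripts of H2-DMb1, 11.7% also occur in H2-DMb2, and 10.6% of those of H2-DMb2 in H2-DMb1. Within the last 500 bases of the transcripts the shares were 13.6% for H2-DMb1 and 0% for H2-DMb2. Reads from shared stretches cannot be given to either gene, and the counts of both are uncertain as far as reads fall there.

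Class II promoters share a module in which the X2 box, bound by CREB, lies a fixed distance before the Y box, bound by NF-Y, with RFX bound just upstream on the X box. Promoter windows from RefSeq (GRCm38.p6, 250 bases before to 50 after each start) were at hand for 5 of the 8 members, with 2 starts for H2-DMa. The letters TGANG followed after 14 to 22 bases by GATTGG, searched on both strands with overlaps allowed, were found in the windows of H2-Aa, H2-Eb1, H2-DMb1 and H2-DMb2, against 0.767% of all 32851 windows. The spacing was set with these promoters in view. GATTGG alone was in 16.1% and TGANG alone in 89.4% of all windows. The pair was in neither H2-DMa window. The 4 member stretches are shown because the genes that carry them differ in level and in their response to age below, and the stretch of H2-Ob, a gene of the inhibitor H2-DO, because it moved in the other direction. GATTGG and the TGANG matches at this distance from it are in capitals, and other TGANG matches are left in lower case. Each stretch is written 5′ to 3′ on the gene's strand and ends before the transcript start of its window. For H2-DMb2 that start lies inside the span given for the gene above.
H2-Aa, chr17:34287859-34287922, minus strand: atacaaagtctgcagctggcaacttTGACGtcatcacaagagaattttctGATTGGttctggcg
H2-Eb1, chr17:34305756-34305820, plus strand: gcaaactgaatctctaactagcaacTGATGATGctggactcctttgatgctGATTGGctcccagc
H2-DMb1, chr17:34153077-34153142, plus strand: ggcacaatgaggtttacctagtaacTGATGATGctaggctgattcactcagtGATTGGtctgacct
H2-DMb2, chr17:34145109-34145171, plus strand: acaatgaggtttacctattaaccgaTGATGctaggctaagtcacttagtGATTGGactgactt
H2-Ob, chr17:34238801-34238860, plus strand: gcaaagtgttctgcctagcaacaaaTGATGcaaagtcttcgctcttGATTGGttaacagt
GATTGG began at position -49 from the start in H2-Aa, -60 in H2-Eb1, -62 in H2-DMb1, -91 in H2-DMb2 and -58 in H2-Ob. A match describes these letters only and is no evidence that a factor was bound.

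Aged HSPCs held more transcripts of both I-A chains, of the I-E β chain and of the invariant chain than young HSPCs. The H2-DM chains and Ciita did not pass the test of age given below. H2-DMb1, H2-DMb2 and Ciita were still higher in both aged pools than in either young pool, by smaller folds. Of all genes tested, 18.1% had both aged pools above both young pools. Cd74 was at 109 CPM in young pool A, 194 CPM in young pool B, 410.0 CPM in aged pool A and 571 CPM in aged pool B. Both aged pools were above both young pools, and pool B was above pool A at each age. H2-Aa, the I-A α chain, was at 54.5 and 89.3 CPM in the young pools and at 169 and 279 CPM in the aged pools. H2-Ab1, the I-A β chain, was at 56.3 and 90.3 CPM in the young and 147 and 238 CPM in the aged pools. H2-Eb1, the I-E β chain, changed most of the 4, from 18.5 and 35.9 CPM in the young pools to 81.2 and 162 CPM in the aged pools. None of the 4 genes overlapped between ages.

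With the summed counts of each pool as the unit, facility as a block and edgeR's quasi-likelihood test with Benjamini-Hochberg adjustment over all 13555 genes, these 4 of the 8 members rose with age, against 1.6% of all genes tested that were higher in aged pools. The log2 fold of aged over young was 2.10 ± 0.17 (SE) for H2-Eb1 (4.29-fold, adjusted p = 0.0149) and 1.68 ± 0.20 for Cd74 (3.21-fold, adjusted p = 0.0309). It was 1.59 ± 0.18 for H2-Aa (3.00-fold, adjusted p = 0.0269) and 1.34 ± 0.17 for H2-Ab1 (2.53-fold, adjusted p = 0.0366). Within facility A alone the log2(CPM + 1) difference was 1.90 for Cd74, 1.62 for H2-Aa, 1.37 for H2-Ab1 and 2.07 for H2-Eb1, and within facility B it was 1.55, 1.63, 1.39 and 2.15 in the same order of genes. The age difference was of like size at either facility, although aged pool A and young pool B were sequenced to more reads per cell than the other pools. Over all genes tested the median log2 fold was 0.01, and over the 8 members it was 1.007. DESeq2 with the same block also called the 4 genes (2.74% of genes higher in aged pools). Without the facility as a block none of the 4 genes passed (adjusted p 0.37 to 0.52 by edgeR, with 0 of all 13555 genes called and 1103 at an unadjusted p under 0.05). Fits with a pool left out also dropped the facility block, so they cannot tell the loss of the pool from that of the block. In them the log2 folds of the 4 genes lay between 0.76 and 2.81. The plasma cell list was higher in the aged pools too, and the plasma-like cells described below gave 0.506 to 2.83% of the UMIs of the 4 genes.

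H2-DMa, the α chain of H2-DM, gave no such difference. It was at 199 and 221 CPM in the young pools and at 198 and 283 CPM in the aged pools, so that the ages overlapped (log2 fold 0.12 ± 0.21, adjusted p = 0.844 by edgeR). Without young pool A or aged pool B its direction turned, to -0.01 and -0.32 on the log2 scale. H2-DMb1, the main β chain, was at 56.1 and 67.6 CPM in the young and 87.7 and 95.7 CPM in the aged pools. Its ages did not overlap, yet the difference did not pass (log2 fold 0.52 ± 0.16, adjusted p = 0.201 by edgeR). H2-DMb2, the paralog, was low, at 2.83 and 2.80 CPM in the young and 4.28 and 5.11 CPM in the aged pools (log2 fold 0.68 ± 0.27, adjusted p = 0.317 by edgeR). Ciita had the fewest UMIs of the members, with 52 and 25 UMIs in all cells of the young pools and 40 and 77 UMIs in those of the aged pools, or 1.43, 1.52, 1.92 and 2.31 CPM (log2 fold 0.46 ± 0.37, adjusted p = 0.641 by edgeR). With so few UMIs a difference of the size of this error was not detectable. Young and aged pools did not overlap for 7 of the 8 members, all of them higher with age, against 18.1% of all genes tested.

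**Figure D1:**
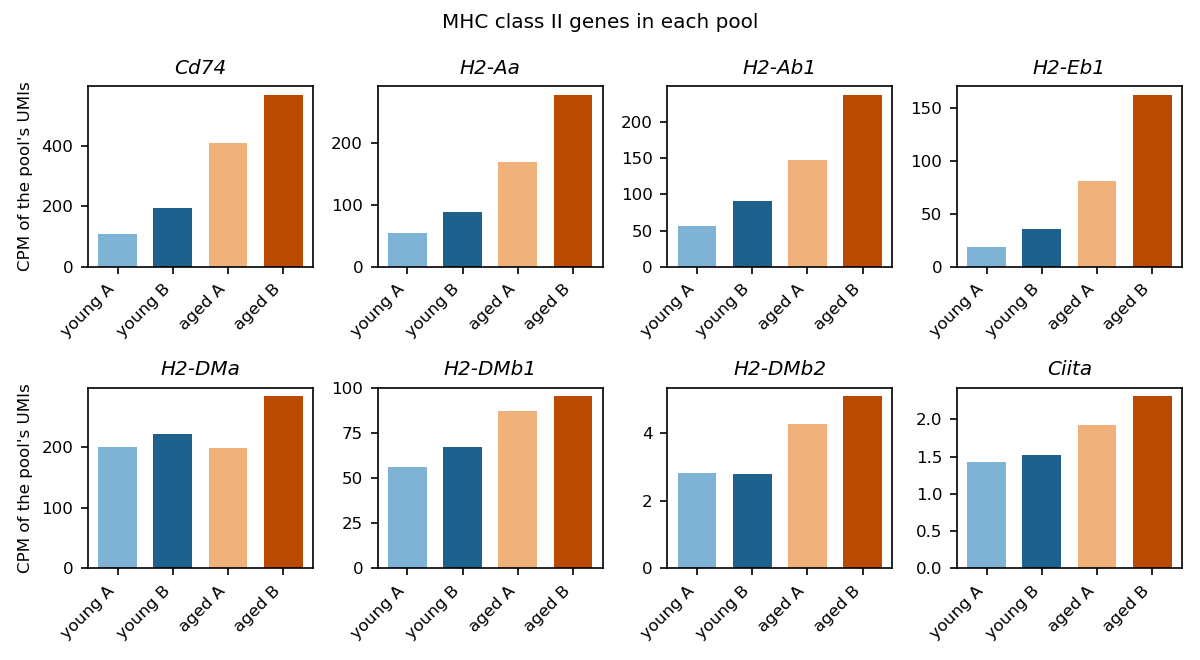
Level of the 8 MHC class II genes in CPM (linear axes from 0, 1 bar per pool, no error bar since each bar is 1 pool). Cd74, H2-Aa, H2-Ab1 and H2-Eb1 are higher in each aged pool than in either young pool, while H2-DMa ranges from 198 to 283 CPM with the ages overlapping.

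The levels of the members relative to each other also differed between ages. H2-DMa exceeded H2-Aa by 1.87 and 1.31 log2 units in the young pools and by 0.23 and 0.02 in the aged pools. H2-Eb1 was below H2-Ab1 by more in young than in aged pools, with log2 ratios of -1.60 and -1.33 against -0.86 and -0.55. Cd74 and H2-Aa kept a steadier ratio, at 0.999, 1.12, 1.28 and 1.03 log2 units in the same order of pools. The ages did not overlap in the ratios of H2-DMa to H2-Aa and of H2-Eb1 to H2-Ab1 (exact permutation test of 2 pools against 2, two-sided p = 0.33 for each, the smallest this design allows), and overlapped in that of Cd74 to H2-Aa (exact permutation p = 0.67). These are ratios of counts without a correction for transcript length.

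A class II UMI was detected in a larger share of aged than of young cells. A cell without one may still hold the transcript, and this share also rises with the level per cell. To compare cells at equal depth, each cell was thinned to 3000 UMIs, which left out 0 and 50 cells of the young pools and 176 and 4 cells of the aged pools. At least 1 UMI of Cd74, H2-Aa, H2-Ab1 or H2-Eb1 was then seen in 29.5% of 5189 cells of young pool A (95% exact binomial interval 28.2 to 30.7%), in 40.9% of 2194 cells of young pool B (38.8 to 43.0%), in 61.7% of 3152 cells of aged pool A (60.02 to 63.4%) and in 75.9% of 4150 cells of aged pool B (74.5 to 77.2%). The ages did not overlap, and the aged mean was 33.6 percentage points higher, by 32.3 points at facility A and 35.0 points at facility B (exact permutation test of 2 pools against 2, two-sided p = 0.33, the smallest possible). Intervals cover counting error only. Without thinning the shares were 43.4%, 56.1%, 74.8% and 87.8%.

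Since free RNA in droplets gives UMIs to cells that do not express a gene, the same share was taken in erythroid-like cells, the cluster with the lowest class II level. It was 11.8% and 14.9% in the young pools and 26.0% and 19.3% in the aged pools, at median depths before thinning of 7635, 8949, 5732 and 6394 UMIs. Cells of no primed lineage, at 5832, 6127, 5746 and 6656 UMIs, gave 32.1%, 43.3%, 64.6% and 78.6%. For Cd74 alone the erythroid-like share was 2.37 to 4.48% in the 4 pools against 18.6%, 26.1%, 43.2% and 54.6% in non-primed cells. Erythroid-like cells were taken because their level was lowest, so that the direction of this difference was set by the choice, and they held H2-Ab1 UMIs in 8.06% and 10.4% of young and 15% and 10.5% of aged cells. Whether these came from free RNA was not tested.

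The pools were then compared by the number of class II UMIs in a cell. Cells with 0 UMIs of the 4 genes made up 70.5% and 59.1% of the young pools and 38.3% and 24.1% of the aged pools. Cells with a single UMI made up 16.1%, 17.4%, 21.3% and 17.3%. Cells with 10 or more UMIs made up 1.14% and 2.87% of the young and 6.22% and 11.4% of the aged pools. Before thinning, the 1% of cells richest in Cd74 gave 31.1% and 17.8% of the Cd74 UMIs of the young pools and 14.97% and 10.8% of those of the aged pools, so that the young level rested more on few cells. Cd74 was also seen in fewer young cells, 22.9% and 33.5% against 51.3% and 66.2% of aged cells, which by itself raises such a share. In young pool A a single cell held 193 Cd74 UMIs. Cells with 50 or more UMIs of the 4 genes numbered 6 and 2 in the young pools and 16 and 84 in the aged pools, and 2, 0, 3 and 5 of them held UMIs of at least 2 rare genes of one mature-cell list.

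**Figure D2:**
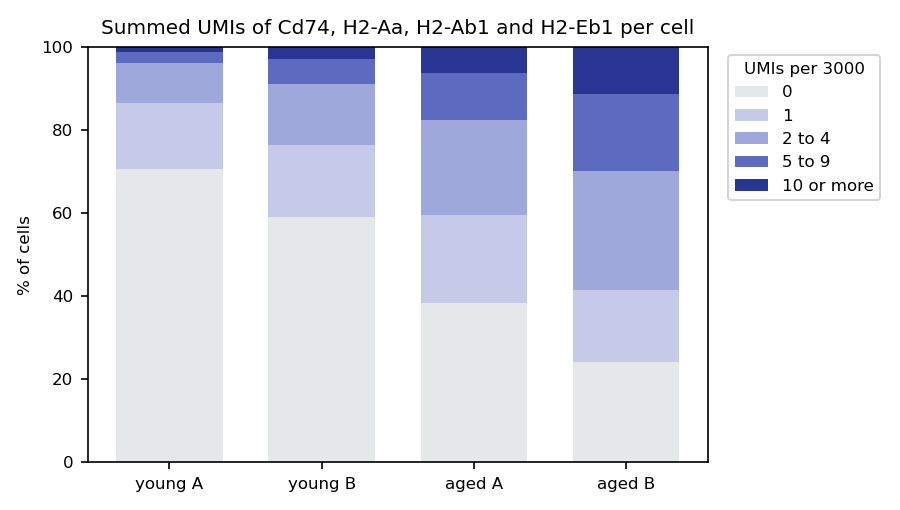
Share of cells (%) by the summed UMIs of Cd74, H2-Aa, H2-Ab1 and H2-Eb1 in the cell after thinning to 3000 UMIs, 1 stacked bar per pool. The share with 0 UMIs goes from 70.5% in young pool A to 24.1% in aged pool B, and the share with 10 or more from 1.14% to 11.4%.

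H2-Aa and H2-Eb1 were seen more often in cells with Cd74, and for H2-DMa the gap was narrower. In young pool A, H2-Aa was found in 36.2% of cells with a Cd74 UMI and in 6.58% of those without, and in aged pool B in 62.4% and 25.9%. H2-Eb1 was found in 18.1% against 2.23% of cells in young pool A and in 44.7% against 17.7% in aged pool B. H2-DMa was found in 45.4% of cells with and 41.3% of cells without Cd74 in young pool A, in 50.3% and 39.3% in aged pool A, where its gap was widest, and in 60.7% and 52.3% in aged pool B. Young pool B and aged pool A gave the same order for each of these genes. Ciita was found in 0.482 to 0.747% of thinned cells and was too rare to place.

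To see which cells carried the transcripts, cells of the 4 pools were integrated and clustered with Seurat after the class II genes were removed from the features, and clusters were named from marker lists where at least 3 markers led them. Of 15 clusters, 5 large ones met no list and were left as clusters 0 to 4, and cluster 8, which met none either, was led by Esco2, Pbk and Mxd3. The named clusters were division-like, immediate early-like, neutrophil-like, interferon-like, erythroid-like, megakaryocyte-like, mast cell-like and plasma-like. Cluster 13, of 98 cells, met the early lymphoid list by Il7r, Tcrg-C4, Gata3 and Tcf7, but its leading genes Cxcr6, Trbc2, Xcl1 and Ncr1 are of T and innate lymphoid cells and it was given no name. Primed cells were those of the neutrophil-, erythroid-, megakaryocyte- and mast cell-like clusters and cluster 13, 12.8% of all cells.

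Interferon-like cells, with Ifit1, Ifit3, Isg15 and Irf7 among their markers, had the highest class II level of the 12 clusters with at least 10 cells in every pool. The summed level of the 4 genes was 735 and 838 CPM in the young pools and 2257 and 2770 CPM in the aged pools, a mean of 1650 ± 1020 CPM (SD, n = 4 pools). Cd74 alone was at 400.2 and 468 CPM in the young and 1259 and 1458 CPM in the aged pools of these cells. Erythroid-like cells, with Klf1, Gata1 and Car1, had the lowest level, at 47.6 and 90.7 CPM in the young and 111 and 104 CPM in the aged pools, a mean of 88.4 ± 28.4 CPM (SD, n = 4 pools). The log2 difference between the highest and the lowest cluster was 4.04 ± 0.65 (SD over 4 pools).

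The order from high to low was interferon-like, clusters 0, 4, 1, 3 and 2, division-like, cluster 8, neutrophil-like, mast cell-like, megakaryocyte-like and erythroid-like. Neighbours were set apart where the difference had the same sign in all 4 pools and its mean exceeded its SD over pools. They were interferon-like and cluster 0 (0.90 ± 0.50 log2 units, SD), division-like and cluster 8 (0.55 ± 0.36), cluster 8 and neutrophil-like (0.18 ± 0.11) and megakaryocyte- and erythroid-like (1.03 ± 0.40). The other neighbours did not meet both conditions. This compares neighbours only, and clusters further apart in the order can differ in every pool, as clusters 0 and 2 did. Cluster levels are a description, with no test.

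The members spread over the clusters to different degrees. From the lowest to the highest of the 12 clusters Cd74 ranged 49.1-fold and 12.0-fold in the young pools and 75.8-fold and 65.6-fold in the aged pools. H2-Ab1 ranged less, 3.36- to 9.14-fold, with 32.3 to 53.4 CPM left in the lowest cluster of each pool. H2-DMa ranged only 1.73- to 2.54-fold in the 4 pools. In neutrophil-like cells of young pool A, marked by Mpo and Elane, H2-DMa was at 250.1 CPM, the highest of the 12 clusters in that pool, while Cd74 was at 23.3 CPM. Ciita was at 1.08 to 4.58 CPM in interferon-like cells and clusters 0 to 4. The interferon-like values rested on 3, 1, 2 and 5 UMIs in young A, young B, aged A and aged B. Ciita was not counted in erythroid-like or mast cell-like cells of any pool. A count of 3 UMIs would be 1.59 to 6.67 CPM in the former and 2.77 to 15.1 CPM in the latter, so this does not show absence.

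**Figure D3:**
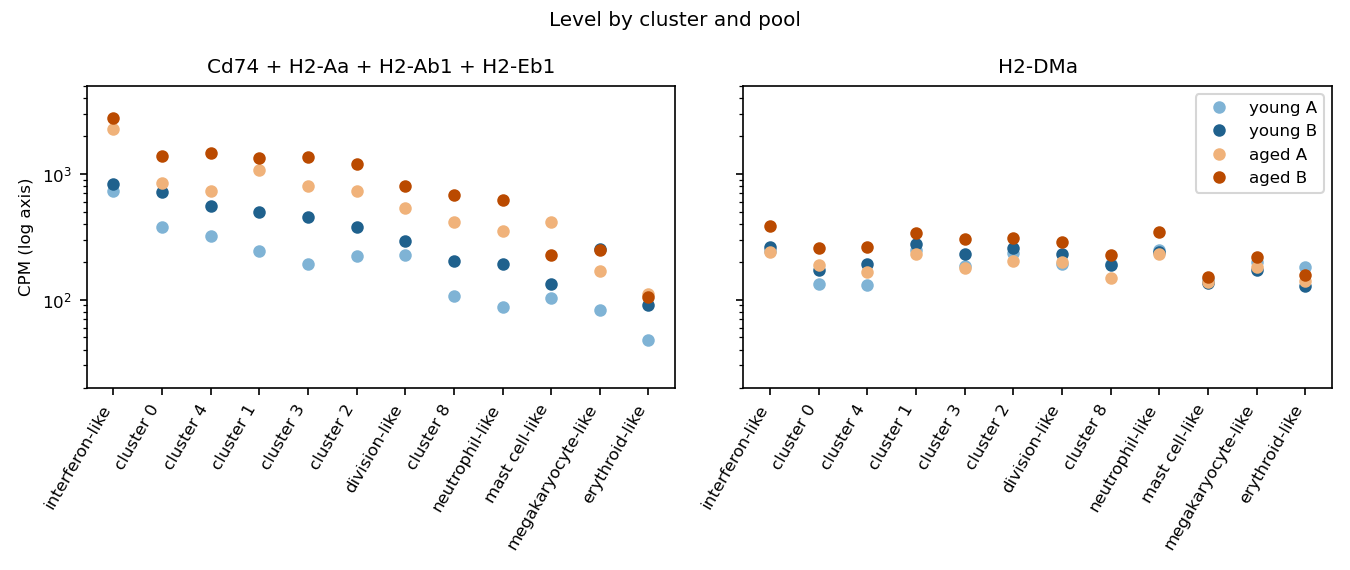
Level by cluster in CPM (log axis), 1 point per pool, for the sum of Cd74, H2-Aa, H2-Ab1 and H2-Eb1 on the left and for H2-DMa on the right, with clusters in the order of the left panel. The sum runs from 2770 CPM in interferon-like cells of aged pool B to 47.6 CPM in erythroid-like cells of young pool A, while H2-DMa stays between 128 and 384 CPM.

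The plasma-like cluster and cluster 13 were small and stood apart. Plasma-like cells numbered 4 and 2 in the young pools and 19 and 11 in the aged pools. They held Cd74 at 3165 and 3302 CPM in the aged pools but H2-Aa at only 36.2 and 33.7 CPM and H2-DMa at 36.2 and 59.0 CPM. They gave 1.42%, 0.506%, 2.83% and 0.986% of the UMIs of the 4 genes in young A, young B, aged A and aged B. Cluster 13 gave 8.27% of these UMIs in young pool A from 0.636% of its cells, and 1.56%, 1.78% and 1.06% in the other pools. Its Cd74 level varied without order, at 1694 and 358 CPM in the young pools and 1114 and 2919 CPM in the aged pools, the last from 7 cells. Immediate early-like cells, of which young pool B held only 8, were also left out of the order above. They made up 1.98% and 0.357% of the cells of the young pools and 18.2% and 4.26% of those of the aged pools. They gave 1.83% and 0.402% of the UMIs of the 4 genes in the young pools and 24.4% and 5.63% in the aged pools. Their summed level of the 4 genes was 214 and 524 CPM in the young pools and 952 and 1335 CPM in the aged pools.

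Igkc was spread otherwise than the class II genes. Outside the plasma-like cluster it was at 581 to 859 CPM in every cluster of aged pool A and at 57.8 to 164 CPM in every cluster of aged pool B. Cd74 ranged in the same clusters from 16.6 to 1259 CPM in aged pool A and from 22.2 to 2919 CPM in aged pool B. Igkc was thus higher in aged pool A than in aged pool B, and Cd74 was higher in aged pool B. When cells with UMIs of at least 2 genes of one mature-cell list were left out, which took 2841 of 5189, 1068 of 2244, 3064 of 3328 and 2320 of 4154 cells, the log2 folds were 1.70 for Cd74, 1.62 for H2-Aa, 1.39 for H2-Ab1 and 2.16 for H2-Eb1, each past the threshold. The plasma cell list holds Igkc, so the cells left out need not be mature cells. Counting only rare genes of these lists, a choice made after a first look, took 32, 6, 28 and 15 cells. The log2 folds were then 1.70 for Cd74, 1.62 for H2-Aa, 1.36 for H2-Ab1 and 2.14 for H2-Eb1 (adjusted p 0.0160 to 0.0398 by edgeR).

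The age difference was also found within clusters and with equal cluster shares. When every pool was given the same shares of the 15 clusters, the sum of the 4 genes was 286 and 475 CPM in the young pools and 798 and 1243 CPM in the aged pools, which left log2 differences of 1.48 at facility A and 1.39 at facility B. This weighting was chosen after seeing the data. The age difference was then tested in each of the 12 clusters with at least 10 cells in every pool, in the same edgeR fit over all genes of that cluster. All 4 genes rose in 7 clusters: 1, 2, 3, 4 and 8, the neutrophil-like and the interferon-like cells. In all, 29 of 46 tests of these genes passed, all of them upward, against 0 to 1.23% of all genes tested upward per cluster (0.93% in cluster 3, 0.996% in cluster 4, 0.812% in cluster 8). None of the 27 tests of H2-DMa, H2-DMb1 and H2-DMb2 passed. With DESeq2, 13 of the 29 calls no longer passed, namely all 4 genes in cluster 4 and in interferon-like cells, Cd74, H2-Aa and H2-Ab1 in neutrophil-like cells and Cd74 and H2-Ab1 in cluster 8, and 3 other tests passed. Without the facility block none of the 29 calls passed (adjusted p of 0.219 or more by edgeR).

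In neutrophil-like cells, where 22 of 8301 genes rose (0.265%), Cd74 went from 23.3 and 73.9 CPM in the young pools to 139.7 and 194 CPM in the aged pools (log2 fold 1.94 ± 0.27, adjusted p = 0.00593 by edgeR). With a pool and the facility block left out, this log2 fold lay between 1.06 without young pool A and 2.91 without young pool B. H2-Eb1 went from 3.89 and 10.1 CPM to 32.9 and 89.3 CPM in these cells, the largest change of a member past the threshold in any cluster (3.07 ± 0.33, adjusted p = 0.00104 by edgeR). In interferon-like cells, where 1.08% of genes rose, the log2 folds lay close together, from 1.58 for H2-Aa to 1.86 for H2-Eb1. In cluster 1, led by Flt3 and with 1.13% of genes rising, H2-Eb1 rose by 2.60 ± 0.21 (adjusted p = 0.00136 by edgeR).

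Cluster 0, led by Cldn5, Ramp2 and Meg3, was the largest and had, among the 12 clusters, the highest young mean after interferon-like cells. Its Cd74 was at 197 and 411 CPM in the young pools and at 468 and 701 CPM in the aged pools, and no member passed (log2 fold 0.96 for Cd74, adjusted p = 0.193; 1.44 for H2-Eb1, adjusted p = 0.0576, both by edgeR; 0.413% of genes rose). DESeq2 called H2-Eb1 (adjusted p = 0.0127) and H2-Ab1 (adjusted p = 0.0481) there. With a pool and the facility block left out, the edgeR log2 fold of H2-Eb1 lay between 0.70 without aged pool B and 2.13 without young pool B. In division-like cells, where 0.403% of genes rose, H2-Eb1 rose by 1.78 ± 0.21 (adjusted p = 0.0251 by edgeR) and the other members did not pass, though DESeq2 called H2-Aa too (adjusted p = 0.0267). In erythroid-, megakaryocyte- and mast cell-like cells no member passed, and 0.0156%, 0.161% and 0% of genes rose in them. Cd74 was at 10.6 and 39.1 CPM in young and 16.6 and 22.2 CPM in aged erythroid-like cells, and at 8.16 and 52.5 CPM in young and 42.6 and 39.7 CPM in aged megakaryocyte-like cells, with the ages overlapping in both. H2-Eb1 in erythroid-like cells rested on 2 and 2 UMIs in the young and 11 and 7 UMIs in the aged pools, with both young pools under the floor of 3 counts, so its fitted fold depends on the prior count.

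**Figure D4:**
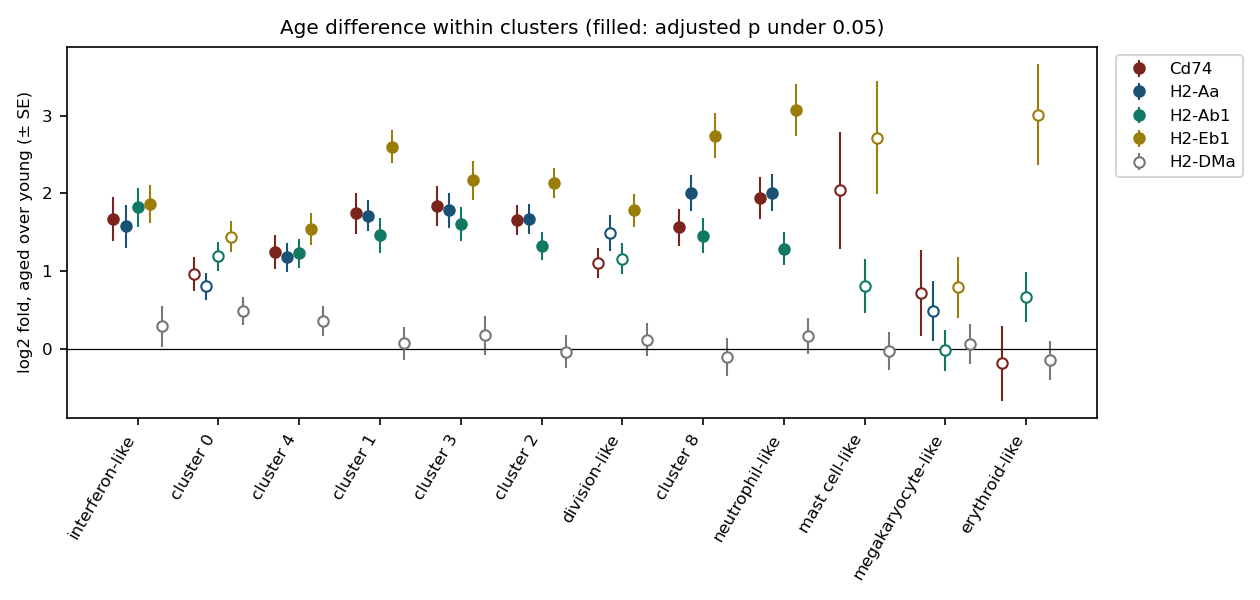
Log2 fold of aged over young ± SE from edgeR within each cluster for 5 members (filled points, adjusted p under 0.05; clusters ordered by class II level). The 4 chain and invariant chain genes lie above 1 in most clusters, with H2-Eb1 highest, while H2-DMa lies between -0.15 and 0.48 in every cluster.

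The primed and non-primed cells were then compared as classes. In non-primed cells the 4 genes rose by 2.06 ± 0.16 for H2-Eb1, 1.62 ± 0.21 for Cd74, 1.53 ± 0.18 for H2-Aa and 1.37 ± 0.17 for H2-Ab1 on the log2 scale (adjusted p 0.0167 to 0.0417 by edgeR, against 1.62% of 13304 genes). At a clustering resolution of 0.8 Cd74 did not pass in them (adjusted p = 0.0549 by edgeR). In primed cells the log2 folds were 1.77 ± 0.31, 1.15 ± 0.21, 1.20 ± 0.25 and 0.88 ± 0.22 in the same order, and none passed (adjusted p 0.0916 to 0.365, against 0.236% of 10159 genes). Cd74 passed in primed cells at a resolution of 0.3 (adjusted p = 0.0396), and Cd74, H2-Aa and H2-Eb1 passed with no filter on low counts (adjusted p = 0.00398, 0.00126 and 5.7e-08, all by edgeR). A fit of primed cells without cluster 13 was not among the planned fits. It gave log2 folds of 2.311 for H2-Eb1, 1.496 for Cd74, 1.502 for H2-Aa and 0.831 for H2-Ab1. Of these only H2-Ab1 was lower than with cluster 13, and none passed (adjusted p 0.0899 to 0.861 by edgeR). The class by age term was tested itself, and none of the 8 members passed it (log2 difference of primed minus non-primed -0.33 for H2-Eb1, -0.53 for Cd74, -0.37 for H2-Aa and -0.53 for H2-Ab1, adjusted p 0.103 to 0.616 by edgeR), against 0.854% of 12875 genes whose age change was smaller and 1.72% whose change was larger in primed cells. On simulated counts this term found 18 of 100 true 2-fold and 76 of 100 true 4-fold differences, so a miss at these sizes says little. The outcome of the term depended on how classes were drawn. With age-changed genes left out of the clustering, Cd74 (-0.93, adjusted p = 0.0108), H2-Aa (-0.82, adjusted p = 0.00864) and H2-Ab1 (-0.71, adjusted p = 0.0394, all by edgeR) passed. Without cluster 13 only H2-Ab1 did (-0.58, adjusted p = 0.0397 by edgeR). Cd74 was then at -0.16 and H2-Aa at -0.03, and H2-Eb1 turned to 0.24. At resolutions of 0.3 and 0.8 and without cell-cycle regression none of the 4 genes passed the term (adjusted p 0.254 to 0.985 by edgeR).

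Among the other pathway genes tested, only H2-Ob, downward, and Lgmn, upward, passed the threshold. With 1.6% of all genes called upward and 0.428% downward, so few calls in short lists say nothing particular about the lists. Of the other class II genes H2-Ob, the β chain of H2-DO, which inhibits H2-DM, fell from 17.0 and 17.8 CPM in the young pools to 5.05 and 5.41 CPM in the aged pools. The ages were far apart and the replicates close (log2 fold -1.78 ± 0.19, adjusted p = 0.0237 by edgeR, against 0.428% of genes that fell). Its partner H2-Oa was at 37.2 and 39.4 CPM in the young and 27.5 and 33.6 CPM in the aged pools (-0.39 ± 0.17, adjusted p = 0.380 by edgeR). H2-Eb2 was at 0.302 and 0.122 CPM in the young and 0.577 and 0.691 CPM in the aged pools. The log2 ratio of H2-Ob to H2-DMb1 was -1.73 and -1.92 in the young pools and -4.12 and -4.15 in the aged pools. Without the facility block H2-Ob did not pass (adjusted p = 0.196 by edgeR). With a pool left out as well as the block, its log2 fold lay between -2.01 and -1.58.

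Of 10 genes of antigen processing in endosomes, 1 rose and none fell, against 1.6% and 0.428% of all genes tested. It was Lgmn, the asparaginyl endopeptidase legumain, at 1.70 and 2.99 CPM in the young pools and 6.21 and 9.43 CPM in the aged pools (log2 fold 1.71 ± 0.22, adjusted p = 0.0369 by edgeR). Lgmn did not pass on thinned cells (adjusted p = 0.0549) or without the block (adjusted p = 0.424, both by edgeR). With a pool left out as well as the block, its log2 fold lay between 1.18 and 2.28. Ctsb, which encodes the lysosomal protease cathepsin B, was at 122 and 143 CPM in the young and 215 and 191 CPM in the aged pools (0.57 ± 0.18, adjusted p = 0.220 by edgeR). Ctsd, the aspartic protease cathepsin D, was at 200.4 and 196 CPM against 259 and 222 CPM (0.23 ± 0.18, adjusted p = 0.644 by edgeR). Ctsz, the carboxypeptidase cathepsin Z, was at 99.2 and 103 CPM in the young and 104 and 108 CPM in the aged pools. Ctss, the cathepsin that trims the invariant chain in antigen-presenting cells, is named after its values were seen. It was at 22.1 and 26.1 CPM in the young and 10.5 and 5.05 CPM in the aged pools and did not pass (-1.76 ± 0.32, adjusted p = 0.0773 by edgeR).

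Of 7 genes of the RFX, NF-Y and CREB factors that act on class II promoters none passed, with a median log2 fold of -0.01. With 1.6% of all genes called upward and 0.428% downward, a count of 0 in so short a list says nothing particular about it. Nfyb, the β subunit of NF-Y, was at 38.7 and 42.1 CPM in the young pools and 41.8 and 26.8 CPM in the aged pools (-0.32 ± 0.21, adjusted p = 0.562 by edgeR). Nfyc, another subunit, was at 32.5 and 30.8 CPM in the young and 35.5 and 29.9 CPM in the aged pools, and Creb1 at 28.2 and 27.1 CPM against 34.3 and 22.4 CPM. Of 8 genes of interferon-gamma signalling none passed either, with a median log2 fold of 0.18. Jak1, a kinase bound to the receptor, was at 125 and 125 CPM in the young pools and 143 and 129.5 CPM in the aged pools (0.08 ± 0.17, adjusted p = 0.884 by edgeR). Ifngr1, the ligand-binding receptor chain, was at 116 and 117 CPM in the young and 116 and 87.2 CPM in the aged pools. Irf1, a factor induced by interferon-gamma, was at 53.9 and 54.8 CPM in the young and 59.0 and 56.4 CPM in the aged pools (0.04 ± 0.16, adjusted p = 0.948 by edgeR).

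MHC class I genes, which present cytosolic peptides to CD8+ T cells, were measured beside them, and none of 8 passed, with a median log2 fold of 0.09. Of all genes tested 1.6% rose and 0.428% fell, so the lack of calls in the short lists described here says nothing particular about them. B2m was at 3838 and 4962 CPM in the young pools and 5074 and 5337 CPM in the aged pools (0.20 ± 0.29, adjusted p = 0.809 by edgeR). H2-D1 was at 1335 and 1381 CPM in the young and 2063 and 1861 CPM in the aged pools (0.48 ± 0.25, adjusted p = 0.453 by edgeR). H2-K1 was at 1252 and 1605 CPM in the young and 1437 and 1988 CPM in the aged pools, with the ages overlapping. Among partners of the Cd74 receptor, Mif was at 769 and 919 CPM in the young and 700.3 and 821 CPM in the aged pools, and none of 5 genes passed. Ddt, a homolog of Mif, was at 53.6 and 75.1 CPM against 51.0 and 69.1 CPM, and Cd44, a signalling partner of Cd74, at 54.8 and 38.2 CPM against 52.3 and 24.6 CPM. Of 7 genes of surface turnover and costimulation 4 passed the filter and none was called. Cd274, which encodes PD-L1, was at 8.07 and 4.94 CPM in the young and 16.5 and 4.57 CPM in the aged pools, and March8, a ubiquitin ligase, at 9.80 and 3.54 CPM against 11.5 and 4.09 CPM. Cd86, a ligand of CD28, was at 6.06 and 4.76 CPM in the young and 2.16 and 0.721 CPM in the aged pools (-2.11 ± 0.37, adjusted p = 0.0721 by edgeR), while Cd80 and Cd40 were under 1 CPM in every pool.

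**Figure D5:**
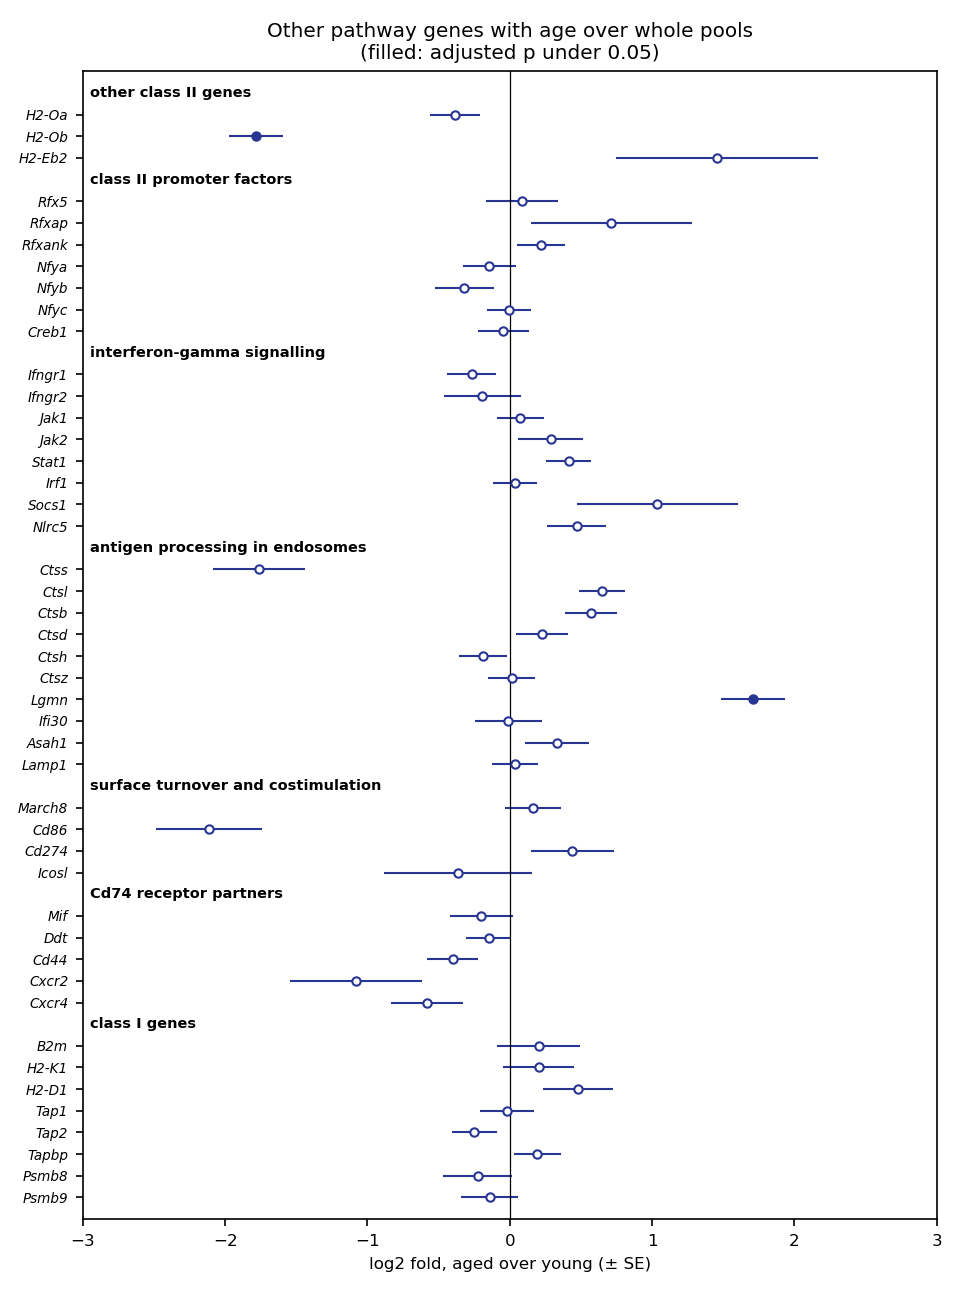
Log2 fold of aged over young ± SE from edgeR over whole pools for the pathway genes that passed the filter, grouped by list (filled points, adjusted p under 0.05). H2-Ob lies at -1.78 and Lgmn at 1.71, and the other genes did not pass.

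The genes whose levels over clusters were most like the mean of Cd74, H2-Aa, H2-Ab1 and H2-Eb1 were taken over 56 sums of cells by cluster and pool, each pool centred on its own mean. Pearson's r was 0.88 for Ctsb, 0.86 for Lsp1, 0.86 for Ly6a, which encodes the Sca1 antigen used in the sort, 0.85 for Shisa5 and 0.84 for Ctsh. Psap, Bst2, Gimap5, Camk2d and B2m followed with 0.83 to 0.82. Of the other members Ciita had 0.75, H2-DMb2 0.63, H2-DMb1 0.59 and H2-DMa 0.43. The plasma-like cells decided part of this order: over the 54 sums without them r was 0.86 for H2-DMb1, 0.78 for Ciita, 0.66 for H2-DMa and 0.65 for H2-DMb2. These are descriptions over sums that share libraries and differ in depth, and they carry no p. None of the 10 genes passed the threshold for age over whole pools, where 1.6% of all genes rose and 0.428% fell. Their log2 folds lay between -0.92 for Lsp1 and 0.57 for Ctsb.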

How the data were processed

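The authors deposited 1 matrix of UMI counts per pool, whole numbers per gene and cell barcode, made with Cell Ranger 2.2.0 on the mm10 (GRCm38.p4) reference according to the submitters' processing notes. They were not normalized. The members and gene lists were chosen with earlier results of these data known.

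Barcodes whose log UMI count lay over 2 SD from their pool's mean were left out. Young pool A kept 5189 cells with 36446168 UMIs, young pool B 2244 with 16399999, aged pool A 3328 with 20788935 and aged pool B 4154 with 33286187. Likely doublets (215, 40, 89 and 138 cells) were marked by a simulated-doublet score, kept, and left out as an alternative. Counts were summed by pool, or by pool and cluster or class, and tested with edgeR 4.0.16 (R 4.3.3): TMM scaling, its filter on low counts, quasi-likelihood test, facility letter as a block, Benjamini-Hochberg adjusted p under 0.05. The letters come from the titles and mark a shared facility according to the study's methods. Young A minus B correlated with aged A minus B with r = 0.488 across 13555 genes, which are not independent replicates. Each pool is 1 sample of several mice, so p-values do not measure the spread between mice. In the blocked fits of age the block takes up the difference between facilities. Their p-values measure how far the age differences at facility A and facility B disagree, with each gene's variance drawn towards that of other genes. CPM is UMIs as counts per 1e6 of the cells summed, and facility differences are on log2(CPM + 1).

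Clusters came from Seurat 5.3.0 (integration of the pools, cell-cycle regression, 2000 features, 15 components, 20 neighbours, resolution 0.5), with 11 class II genes kept out of the features, and clusters were named where at least 3 markers of a list led them. Clusters were tested if each pool held at least 10 cells, which left out immediate early-like cells, plasma-like cells and cluster 13. Shares were taken after thinning to 3000 UMIs per cell, with Python 3.11.15, numpy 2.4.6, scipy 1.17.1 and pandas 2.3.3, and figures were drawn with matplotlib 3.10.9. Members were all named, as were pathway genes past the threshold or among the 3 most abundant others of their list, and the 10 genes most like the members. On counts simulated for the age comparison over 13555 genes, edgeR recovered 81 of 100 true 2-fold and 98 of 100 true 4-fold changes and made 12 wrong calls. The simulation gave both ages the same facility effect and all genes the same dispersion, neither of which need hold in the pools. Alternatives were DESeq2 1.42.0, RLE size factors, no block, no filter, all barcodes, thinned cells, other clusterings and leaving out each pool, the last fitted without the block.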

Additional observations from a re-analysis of the deposited data

How the results depend on the processing

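Without the replicate block, that is without the facility letter, the genes called with age went from 275 to 0 over whole pools (1103 at an unadjusted p under 0.05), from 300 to 0 over both classes and from 890 to 58 over the clusters. DESeq2 with the block called 543, 532 and 452 genes in these comparisons, and no filter on low counts 774 over whole pools and 950 over both classes. Leaving out a pool gave 0 to 287 calls over whole pools, 0 to 371 over the classes and 46 to 1032 over the clusters. The difference in the share of cells with a class II UMI ranged from 26.6 to 40.7 percentage points when a pool was left out. Genes whose age change differed between primed and non-primed cells went from 331 to 193 without cell-cycle regression. The causes were not tested.

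Of the results on single genes and clusters, 138 lost the threshold and 106 kept their side of it when a pool was left out, and 39 lost it and 24 kept their side without the block. Cd74, H2-Aa, H2-Ab1 and H2-Eb1 over whole pools stayed past the threshold with DESeq2, RLE size factors, no filter, all barcodes, thinned cells, and without doublets or cells with mature-cell genes. Directions turned when a pool was left out: H2-DMa over whole pools ranged from -0.32 to 0.54 (-0.01 without young pool A), Cd74 in erythroid-like cells from -1.24 to 0.85, and in megakaryocyte-like cells Cd74 from -0.48 to 2.36, H2-Aa from -0.38 to 1.57 and H2-Ab1 from -0.68 to 0.87. H2-Ab1 in megakaryocyte-like cells also turned without the replicate block (0.015), and H2-Eb1 in the class by age term without cluster 13 (0.24). With 2 pools per age, leaving out a pool leaves an age with a lone pool that is assumed to vary like the others. Those fits also had no facility block, so a threshold lost in them cannot be laid to the pool alone. Ciita and H2-DMb2 are limited by their few UMIs.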
